A study of Mus musculus with 12 samples.

Results

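The endoplasmic reticulum is where secreted proteins are folded, and 33 genes of its chaperones and of the unfolded protein response were followed in the mouse lacrimal gland. The genes were chosen by name: all 33 were in the deposited table of 11736 genes, and all 33 were among the 10325 genes kept for testing, which reached 1 FPKM or more in 3 or more of the 12 libraries. By role they were 16 folding genes (chaperones, disulfide isomerases, J proteins and resident stress proteins), 9 genes of degradation, 6 sensors and transcription factors, and 2 genes that feed back on the integrated stress response.

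RNA sequencing covered lacrimal glands, the source of the aqueous layer of tears, in 4 groups of 3 libraries. The groups were NOD mice aged 12 weeks, NOD mice aged 8 weeks, mice labelled ESS, and mice labelled control. NOD is the non-obese diabetic strain, whose lacrimal and salivary glands are known to become infiltrated by lymphocytes and which serves as a model of Sjögren's syndrome. The label ESS is not spelled out. The series text speaks of LGSS, NOD and control mice, and no label says that ESS and LGSS are the same. No treatment or engineered allele is named for any group. The strain and age of the ESS and control mice, and the sex of all mice, were not part of the labels or series text at hand, so differences between NOD and control glands cannot be told apart from strain, age or sex. No label says whether the 3 libraries of a group came from separate animals, and p-values measure the spread between these libraries, which may be technical.

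As background, proteins that fail to fold in the endoplasmic reticulum are sensed by membrane proteins encoded by Ern1 (IRE1), Eif2ak3 (PERK) and Atf6. IRE1 splices Xbp1 mRNA, PERK slows translation while favouring that of Atf4, and ATF6 is cut to release a transcription factor. Together these factors switch on chaperones, folding enzymes and the machinery that returns misfolded proteins to the cytosol for degradation, and in secretory cells such as gland acini and plasma cells the same programme runs at a high level as part of normal secretion.

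Values are FPKM (fragments counted per kilobase, relative to library size), so levels of different genes can be compared per length. Fold changes and their standard errors (SE) are on the log2(FPKM + 1) scale from a limma fit to all 10325 genes, and a gene is said to have risen or fallen where the Benjamini-Hochberg adjusted p over all of them was under 0.05. The median of all genes was shifted by -0.18 in NOD glands at 12 weeks, -0.15 in NOD glands at 8 weeks and -0.06 in ESS glands, each against control, and changes are also given relative to that median.

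Several libraries stood apart. NOD library 1 at 12 weeks was the highest of its group in 30 of the 33 genes, with a summed level of 4857 FPKM against 4126 and 4004 FPKM in the other libraries of that group. ESS libraries 1 and 2 held salivary gland transcripts, with Bpifa2, a salivary secretory protein, at 6915 and 4790.3 FPKM against 12.2 FPKM in ESS library 3 and at most 12.9 FPKM in the other groups. The tissue label fitted the markers of acinar cells: 11 of 11 were listed, and their summed level was 10446 to 10667 FPKM in NOD glands at 12 weeks, 10367 to 11784 at 8 weeks and 9151 to 10851 in ESS glands, against 6133 to 7648 FPKM in control glands. The markers did not move together: of the 11 markers, 2 rose and 0 fell at 12 weeks (Lcn11 and Lpo, median of the list -0.07), 3 rose and 3 fell at 8 weeks (Bhlha15, Lcn11 and Lpo upward; Aqp5, Pigr and Rab27b downward) and 0 were called in ESS glands with limma. Plasma cells, which depend on the unfolded protein response, were represented by 9 of 9 listed markers with sums of 119 to 147 FPKM in NOD glands at 12 weeks, 90.9 to 111 at 8 weeks and 59.5 to 72.7 in ESS glands, against 54.4 to 58.2 FPKM in control glands. That list includes Derl3, itself among the 33 genes, which made up most of the sum in control glands. Derl3 held 43.3 to 48.4 FPKM there and 50.8 to 67.4 FPKM in NOD glands at 12 weeks. Another marker of the list, Jchain, reached 52.2 to 66.1 FPKM in NOD glands at 12 weeks, 23.9 to 36.6 at 8 weeks and 12.9 to 16.3 in ESS glands, against 1.71 to 2.73 FPKM in control glands, and rose in all 3 comparisons (adjusted p = 0.000187 in ESS glands). Of the 9 markers 4 passed the filter on low values, of which 2 rose at 12 weeks, 3 at 8 weeks (Derl3 among them) and 1 in ESS glands. Sdc1 averaged 5.54 FPKM in NOD glands at 12 weeks and 6.62 FPKM in control glands, and Prdm1, which was not tested, 0.483 and 0.696 FPKM in the same order. Macrophage markers, 6 of 6 tested, summed to 54.9 to 82.9 FPKM in NOD glands at 12 weeks, 50.9 to 57.4 at 8 weeks and 117 to 196 in ESS glands, against 99.4 to 172 FPKM in control glands, and 4 of them fell at each NOD age. Of 6 duct markers 2 fell at each NOD age and 1 in ESS glands, Sox9 in all 3 comparisons. The part of acinar, plasma cell, macrophage or duct content in the results below was not tested, and in these bulk samples fewer cells of a type and less RNA per cell cannot be told apart.

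In NOD glands several luminal chaperones rose, Calr, Hspa5 and Hsp90b1 among them. None of the 3 sensors passed the test in this fit, but Eif2ak3 rose at 12 weeks under each of the 3 other scalings given below. At 12 weeks 9 of the 33 genes rose and 1 fell, namely Calr, Hspa5, Hsp90b1, Pdia3, Dnajb9, Dnajb11, Creld2, Ddit3 and Trib3 upward and Edem2 downward. Of all genes tested, 5.52% rose and 27.8% fell in that comparison, 33.4% in all. At 8 weeks 11 rose and Derl1 fell, where 5.30% of all genes rose and 22.1% fell, 27.4% in all. The genes that rose at 8 weeks were Calr, Hspa5, Hsp90b1, Pdia3, Dnajb11, Sdf2l1, Creld2, Derl3, Ddit3, Trib3 and Ppp1r15a, so 8 genes rose at both ages and 12 at either. The NOD groups share their control libraries. Levels above every control library were found for 11 of the 33 genes (33.3%) at each NOD age, where 8.76% of all genes at 12 weeks and 7.70% at 8 weeks lay that way. Levels below every control library were found for 5 genes at each age, where the share over all genes was 40.4% at 12 weeks and 33.2% at 8 weeks.

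The median log2 fold change of the 33 genes was 0.15 in NOD glands at 12 weeks and 0.15 at 8 weeks, against -0.18 and -0.15 over all genes, and 27 and 25 of the 33 were positive. By role, 7 of the 16 folding genes rose at each age and none fell, with medians of 0.30 at 12 weeks and 0.27 at 8 weeks. Among the 9 degradation genes 0 rose and 1 fell at 12 weeks, and 1 rose and 1 fell at 8 weeks, with medians of 0.15 and 0.06. Of the 6 sensors and transcription factors only Ddit3 rose, at both ages. The difference between roles was not tested. Without NOD library 1, the comparison at 12 weeks held 4 rises (Calr, Dnajb11, Ddit3 and Trib3) and 3 falls (Edem2, Derl1 and Atf6). Without control library 3 it held the same 4 rises and 0 falls. At 8 weeks 7 genes were called without control library 1, and 7 without NOD library 3. After quantile normalization, centring of library medians or rescaling without the most abundant genes, 17 rose and 0 fell at 12 weeks in each case, and 13, 17 and 12 rose and 0 fell at 8 weeks.

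**Figure D1:**
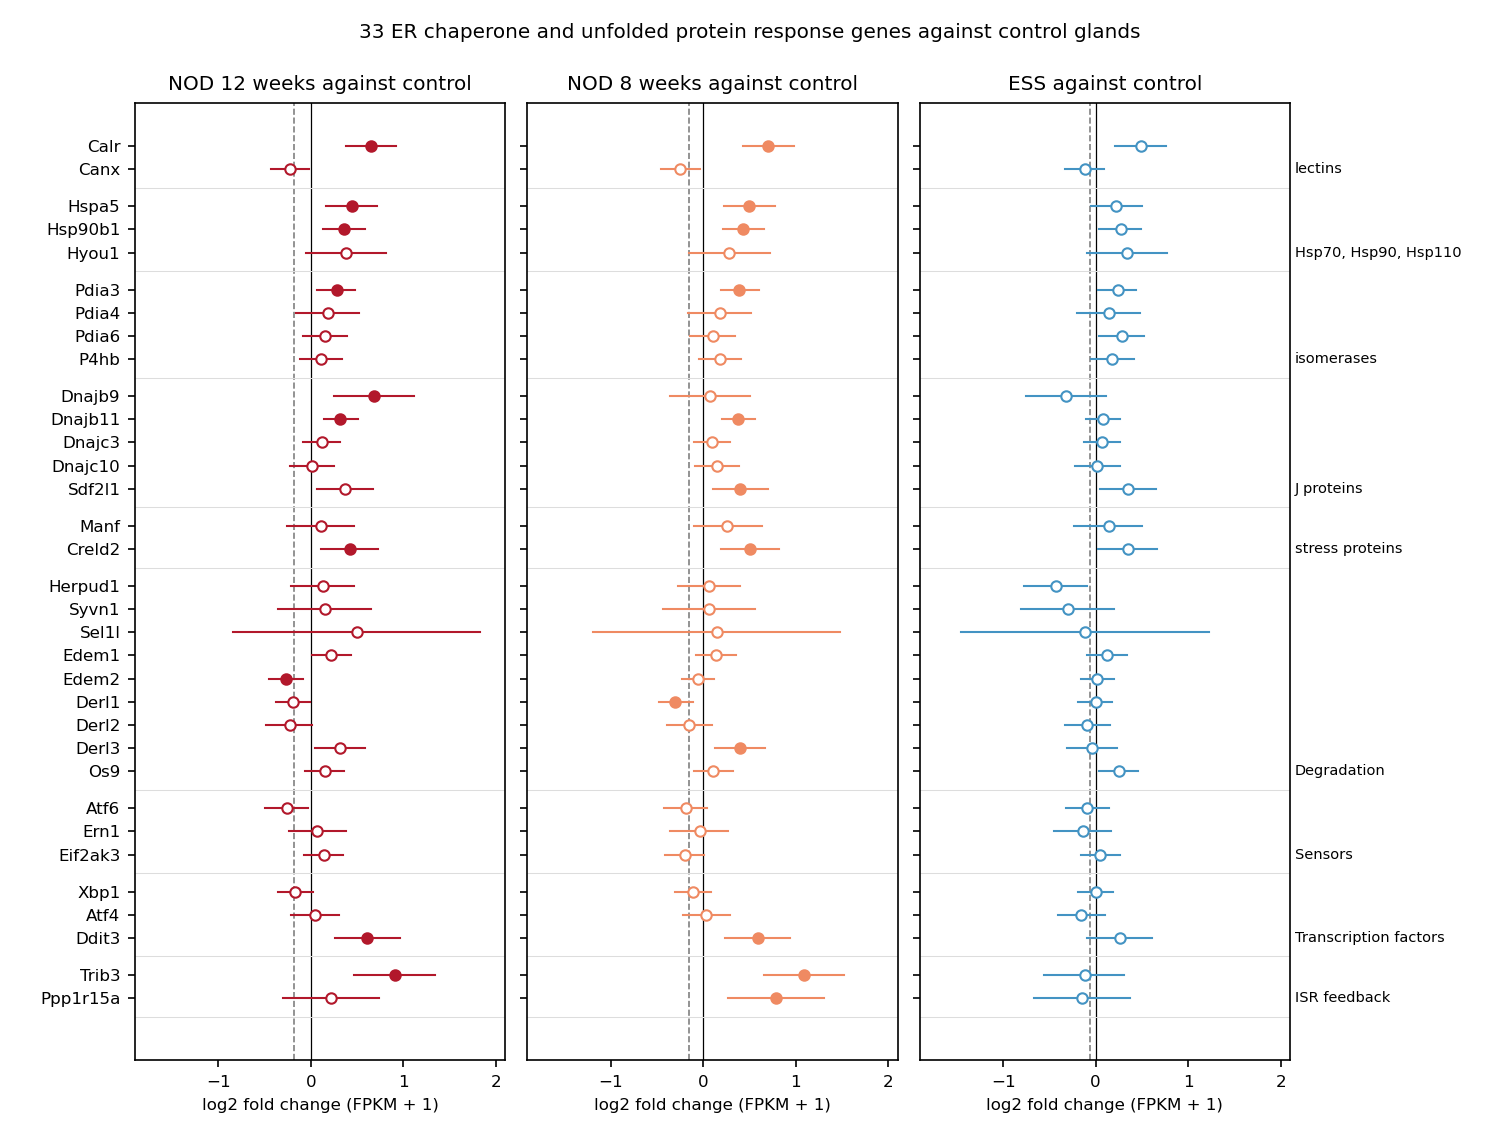
Log2 fold change of each of the 33 genes (vertical axis, grouped by role) in NOD glands at 12 weeks, NOD glands at 8 weeks and ESS glands, each against control glands. Points are limma estimates with 95% intervals, filled where the adjusted p was under 0.05, and the dashed line is the median of all 10325 genes; 10, 12 and 0 points are filled in the 3 panels.

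Several of the chaperone promoters carry the sequence through which ATF6, with the factor NF-Y, is known to act, and their letters are shown because genes with and without a rise share them. Promoter windows from RefSeq (GRCm38.p6, 250 bases before to 50 after each start) were at hand for 29 of the 33 genes, all but Hyou1, Manf, Derl1 and Atf6. Both strands were searched for the ER stress response element ERSE (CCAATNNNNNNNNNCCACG), for ERSE-II (ATTGG, any base, CCACG), for the XBP1-binding letters UPRE (TGACGTGG) and for the ATF4-binding letters CARE (TGATGNAAN). The letters CCACG are common to ERSE and ERSE-II, and the reverse complement of UPRE begins with it. ERSE lay in the windows of 9 of the 29 genes (31%), against 0.119% of all 32851 windows. ERSE-II lay in 2 of the 29 (6.9%), against 0.0365% of all windows. UPRE lay in none of the 29, against 0.676% of all windows, and CARE in those of Herpud1 and Trib3 (6.9%), against 3.95%. Hspa5 and Hsp90b1 are among the genes in which ERSE was first described, so the share is a description and not a test. The elements, each written in its own 5′ to 3′ direction with the fixed letters in capitals, were as follows.
Calr, chr8:84847075-84847093: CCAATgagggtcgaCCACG
Hspa5, chr2:34772025-34772043: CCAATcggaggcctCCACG
Hsp90b1, upstream copy, chr10:86705638-86705656: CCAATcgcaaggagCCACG
Hsp90b1, copy nearer the start, chr10:86705533-86705551: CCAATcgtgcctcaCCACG
Creld2, chr15:88819520-88819538: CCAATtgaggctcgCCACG
Derl3, chr10:75893242-75893260: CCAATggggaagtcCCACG
Dnajb11, ERSE-II, chr16:22857852-22857862: ATTGGcCCACG
Canx, chr11:50325800-50325818: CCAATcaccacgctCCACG
Pdia6, chr12:17266491-17266509: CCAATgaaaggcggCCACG
Dnajc3, chr14:118937827-118937845: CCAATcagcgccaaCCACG
Syvn1, chr19:6046532-6046550: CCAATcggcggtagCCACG
Herpud1, ERSE-II, chr8:94386377-94386387: ATTGGgCCACG
Herpud1, CARE, chr8:94386316-94386324: TGATGcAAc
Trib3, CARE, chr2:152344039-152344047: TGATGtAAa

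In this fit, 6 of the 11 genes with ERSE or ERSE-II rose at a NOD age (Calr, Hspa5, Hsp90b1, Creld2, Derl3 and Dnajb11) and 5 did not pass the test at either (Canx, Pdia6, Dnajc3, Syvn1 and Herpud1). Pdia6 and Dnajc3 did rise at 12 weeks after each of the 3 other scalings, and at 8 weeks after centring. Canx, Syvn1 and Herpud1 rose under none of those scalings. Of the 18 genes whose windows held neither, 6 rose in this fit (Pdia3, Dnajb9, Sdf2l1, Ddit3, Trib3 and Ppp1r15a). Edem1, Os9, Eif2ak3, P4hb and Dnajc10, also without either element, rose at a NOD age after some or all of the other scalings. Genes that rose were thus found with and without the element. Only these letters and these 300 bases were searched. The windows of Calr, the chaperone with the largest change at 8 weeks, of Hspa5, and of Canx, the membrane-bound partner of Calr that did not rise, show the element in place, with its fixed letters in capitals. Each is written along its own gene, and the element of Calr lies on the opposite strand, so that it reads as its reverse complement.
Calr, chr8:84846882-84847181, minus strand: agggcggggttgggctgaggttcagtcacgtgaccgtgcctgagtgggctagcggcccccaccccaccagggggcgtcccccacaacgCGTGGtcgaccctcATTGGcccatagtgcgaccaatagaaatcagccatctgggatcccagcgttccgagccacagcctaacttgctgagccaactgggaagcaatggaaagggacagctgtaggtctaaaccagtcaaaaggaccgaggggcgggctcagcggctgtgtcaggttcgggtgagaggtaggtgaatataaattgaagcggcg
Hspa5, chr2:34771840-34772139, plus strand: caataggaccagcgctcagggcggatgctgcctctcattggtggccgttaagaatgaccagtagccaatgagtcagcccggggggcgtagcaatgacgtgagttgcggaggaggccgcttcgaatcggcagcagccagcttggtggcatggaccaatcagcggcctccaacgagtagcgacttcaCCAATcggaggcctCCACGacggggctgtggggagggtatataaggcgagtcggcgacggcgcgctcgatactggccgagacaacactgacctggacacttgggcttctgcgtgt
Canx, chr11:50325624-50325923, minus strand: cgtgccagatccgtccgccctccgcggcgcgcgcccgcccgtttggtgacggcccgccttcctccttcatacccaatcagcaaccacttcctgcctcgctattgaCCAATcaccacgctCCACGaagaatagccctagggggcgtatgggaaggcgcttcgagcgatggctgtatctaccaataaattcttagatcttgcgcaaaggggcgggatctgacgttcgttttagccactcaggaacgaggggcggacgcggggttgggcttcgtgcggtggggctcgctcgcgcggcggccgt

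The lectin chaperones bind sugars on newly made glycoproteins, Calr as a soluble protein of the lumen and Canx in the membrane. Calr (GRCm38 chr8:84841850-84846934) stood at 583, 460.3 and 451 FPKM in NOD glands at 12 weeks, at 508, 564 and 475 FPKM at 8 weeks and at 446, 440.4 and 440.5 FPKM in ESS glands, against 350.2, 338 and 265 FPKM in control glands. All 9 libraries of the other groups lay above all 3 control libraries. The log2 fold change was 0.65 ± 0.12 (SE; adjusted p = 0.00251) at 12 weeks and 0.70 ± 0.12 (adjusted p = 0.00171) at 8 weeks, or 0.83 and 0.85 relative to the median of all genes. In ESS glands it was 0.49 ± 0.12, with an adjusted p of 0.141. Calr was the second most abundant of the 33 genes. Canx, with an ERSE as well, went the other way without passing the test: 79.4 to 90.1 FPKM in NOD glands at 12 weeks, 71.9 to 93.5 at 8 weeks and 86.5 to 94.1 in ESS glands, against 96.9 to 101 FPKM in control glands. Its fold changes of -0.23 ± 0.10 at 12 weeks and -0.25 ± 0.10 at 8 weeks had adjusted p-values of 0.0885 and 0.0738, and amounted to -0.04 and -0.10 relative to the median of all genes.

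Hspa5 encodes BiP, the Hsp70 chaperone of the lumen that also holds the sensors inactive. Its level was 299.5, 227 and 224 FPKM in NOD glands at 12 weeks, 266, 247 and 261 FPKM at 8 weeks and 180.5, 226 and 238 FPKM in ESS glands, against 187, 191 and 171 FPKM in control glands. The NOD libraries of both ages lay above every control library, while 1 ESS library lay among them. Hspa5 rose by 0.44 ± 0.13 on the log2 scale at 12 weeks (adjusted p = 0.0208) and by 0.49 ± 0.13 at 8 weeks (adjusted p = 0.0138), or 0.62 and 0.64 relative to the median. Hsp90b1 (GRP94, the Hsp90 of the lumen) stood at 159.6, 132 and 129.5 FPKM in NOD glands at 12 weeks, at 154, 153 and 136 FPKM at 8 weeks and at 139, 124 and 131 FPKM in ESS glands, against 110.2, 119 and 98.5 FPKM in control glands. No library of another group overlapped the control range, although the lowest ESS value and the highest control value were close. The fold change was 0.36 ± 0.10 at 12 weeks (adjusted p = 0.0204) and 0.43 ± 0.10 at 8 weeks (adjusted p = 0.00939). Without NOD library 1 the adjusted p of Hspa5 and of Hsp90b1 at 12 weeks no longer passed, and the highest adjusted p over all alternatives there was 0.0698 for Hspa5 and 0.0713 for Hsp90b1. Hyou1 (the Hsp110 exchange factor of BiP) ranged from 12.7 to 29.6 FPKM over the 12 libraries and passed in no comparison at gene level in this fit. It rose at 12 weeks after quantile normalization and without control library 2.

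Disulfide isomerases form and reshuffle the bonds between cysteines. Pdia3 (ERp57), which works with Calr and Canx on glycoproteins, stood at 173, 146 and 142 FPKM in NOD glands at 12 weeks, at 166, 165 and 167 FPKM at 8 weeks and at 158, 140.0 and 149.7 FPKM in ESS glands, against 127, 137 and 116 FPKM in control glands. The lowest ESS library lay just above the highest control library, and no groups overlapped with control. Pdia3 rose by 0.28 ± 0.09 on the log2 scale at 12 weeks (adjusted p = 0.0406) and by 0.39 ± 0.09 at 8 weeks (adjusted p = 0.00958). P4hb, the founding isomerase of the family and the most abundant of the 33 genes, stood at 1189.7, 1096 and 1060.2 FPKM in NOD glands at 12 weeks, at 1113, 1345 and 1066 FPKM at 8 weeks and at 1159.9, 1277 and 1074 FPKM in ESS glands, against 1067, 1076 and 952 FPKM in control glands. The NOD groups overlapped with control, and the fold changes of 0.11 ± 0.10 at 12 weeks and 0.18 ± 0.10 at 8 weeks had 95% intervals of -0.12 to 0.34 and -0.05 to 0.41. Pdia4 and Pdia6, isomerases known to be induced by the response, had fold changes of 0.18 and 0.15 at 12 weeks and 0.18 and 0.10 at 8 weeks, which did not pass in this fit. Pdia6 rose at 12 weeks after each of the 3 other scalings, and P4hb after centring and rescaling. At 8 weeks both rose after centring.

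J proteins hand unfolded substrates to BiP. Dnajb11 (ERdj3), which binds nascent chains, stood at 73.3, 65.2 and 66.1 FPKM in NOD glands at 12 weeks, at 73.4, 75.2 and 64.7 FPKM at 8 weeks and at 56.1, 57.6 and 58.1 FPKM in ESS glands, against 51.5, 53.7 and 57.5 FPKM in control glands. Every NOD library lay above every ESS and control library, and ESS overlapped with control. Dnajb11 rose by 0.32 ± 0.08 on the log2 scale at 12 weeks (adjusted p = 0.0111) and by 0.38 ± 0.08 at 8 weeks (adjusted p = 0.00551), and in ESS glands it was lower than in NOD glands at 8 weeks by -0.30 ± 0.08 (adjusted p = 0.0275). Dnajb9 (ERdj4) assists degradation and represses IRE1. It stood at 99.4, 68.8 and 78.9 FPKM in NOD glands at 12 weeks, at 53.3, 54.7 and 50.8 FPKM at 8 weeks and at 33.2, 52.7 and 37.4 FPKM in ESS glands, against 50.9, 64.1 and 39.4 FPKM in control glands. At 12 weeks all libraries lay above those of every other group, whereas at 8 weeks and in ESS glands the values overlapped with control. The rise at 12 weeks was 0.68 ± 0.20 (adjusted p = 0.0203) on the log2 scale, and the fold change at 8 weeks was 0.07 ± 0.20. The direct comparison of 12 with 8 weeks gave 0.61 ± 0.20, with an adjusted p of 0.357, so a change with age did not pass.

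Sdf2l1, a partner of Dnajb11 and BiP, stood at 182, 124 and 129 FPKM in NOD glands at 12 weeks, at 130.3, 141 and 169 FPKM at 8 weeks and at 144, 141 and 138 FPKM in ESS glands, against 116, 106 and 109 FPKM in control glands. No group overlapped with control. It rose by 0.40 ± 0.14 at 8 weeks (adjusted p = 0.0472), while 0.37 ± 0.14 at 12 weeks had an adjusted p of 0.0561. Sdf2l1 also rose at 12 weeks after each of the 3 other scalings, and its call at 8 weeks was kept under 9 of 16 alternatives. Creld2, a stress-induced protein with isomerase activity, stood at 133, 93.3 and 92 FPKM in NOD glands at 12 weeks, at 105, 101 and 129 FPKM at 8 weeks and at 108, 91.3 and 99.3 FPKM in ESS glands, against 72.9, 78.3 and 83.2 FPKM in control glands. Here too each group lay above control, with rises of 0.42 ± 0.14 at 12 weeks (adjusted p = 0.0422) and 0.50 ± 0.14 at 8 weeks (adjusted p = 0.0222). Without NOD library 1 the rise of Creld2 at 12 weeks no longer passed, nor did those of Pdia3 and Dnajb9. Dnajc3 (p58IPK), Dnajc10 (ERdj5) and the secreted factor Manf had fold changes between 0.01 and 0.26 at the NOD ages and passed at neither in this fit. Dnajc3 rose at 12 weeks after each of the 3 other scalings and at 8 weeks after centring. Dnajc10 rose at 8 weeks after quantile normalization and after centring.

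**Figure D2:**
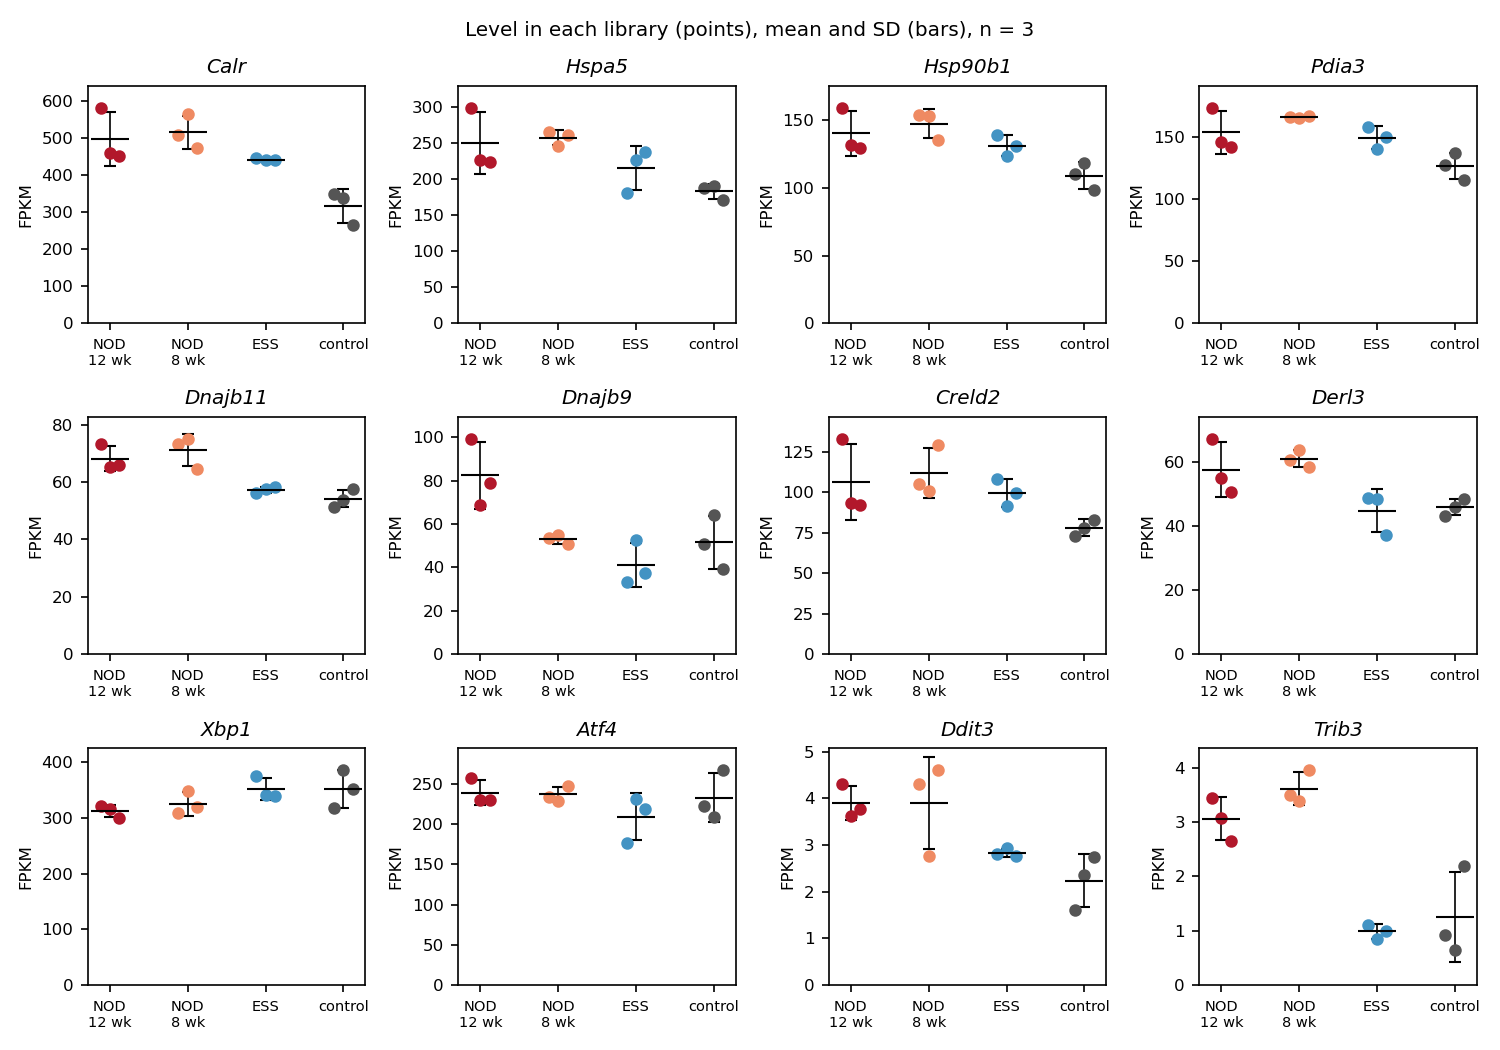
FPKM (vertical axis, from 0) of 12 of the genes in each of the 3 libraries per group, NOD at 12 weeks, NOD at 8 weeks, ESS and control from left to right; horizontal lines are means and bars are SD. For Calr the lowest NOD and ESS libraries, at 451, 475 and 440.4 FPKM, lie above the highest control library at 350.2 FPKM, whereas Xbp1 and Atf4 overlap between all groups except Xbp1 between ESS and NOD at 12 weeks.

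The 9 degradation genes carry misfolded proteins out of the endoplasmic reticulum or mark them for it. Derl3, a derlin of the export channel and highly expressed in secretory and plasma cells, stood at 67.4, 54.9 and 50.8 FPKM in NOD glands at 12 weeks, at 60.8, 63.8 and 58.5 FPKM at 8 weeks and at 48.9, 48.6 and 37.1 FPKM in ESS glands, against 43.3, 46 and 48.4 FPKM in control glands. Both NOD groups lay above control and ESS. Derl3 rose by 0.40 ± 0.12 at 8 weeks (adjusted p = 0.0305), while 0.31 ± 0.12 at 12 weeks had an adjusted p of 0.0695. After each of the 3 other scalings it rose at 12 weeks as well. At 8 weeks 11 of 16 alternatives kept the call, which was lost without any 1 of the NOD libraries of that age. Without control library 1 or 2 the 8-week call was also lost for Derl3. Its relative Derl1 stood at 36.6, 32.5 and 30.4 FPKM in NOD glands at 12 weeks, at 28.7, 33.3 and 30.3 FPKM at 8 weeks and at 38.2, 37.5 and 37.8 FPKM in ESS glands, against 36.8, 37.4 and 39.6 FPKM in control glands. Both NOD groups lay below control, and Derl1 fell by 0.30 ± 0.09 on the log2 scale at 8 weeks (adjusted p = 0.023), or by 0.15 relative to the median of all genes. Edem2, which trims mannose from glycoproteins to mark them for degradation, stood at 109, 95.2 and 97.1 FPKM in NOD glands at 12 weeks, at 115, 124 and 111 FPKM at 8 weeks and at 125, 127 and 116 FPKM in ESS glands, against 116, 120.2 and 128 FPKM in control glands. The libraries at 12 weeks lay below those of every other group, and Edem2 fell by 0.27 ± 0.08 on the log2 scale there (adjusted p = 0.0251), or by 0.09 relative to the median. Neither fall passed after quantile normalization, centring of library medians or rescaling without the most abundant genes.

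Herpud1, which organises the export complex, had no difference from control that passed in NOD glands, with fold changes of 0.13 ± 0.15 at 12 weeks and 0.06 ± 0.15 at 8 weeks. Its lowest group was ESS, with 141 to 196 FPKM, while NOD glands held 207 to 298 FPKM at 12 weeks and 223 to 237 at 8 weeks, and control glands 185 to 245 FPKM. The ubiquitin ligase Syvn1 (HRD1) ranged from 21.7 to 44.6 FPKM over the 12 libraries, and the mannosidase-like Edem1 from 34.4 to 47.7. The lectin Os9 held 169 to 229.7 FPKM and Derl2 7.55 to 12 FPKM. None of these 4 genes passed against control in this fit. Edem1 rose at both NOD ages after each of the 3 other scalings. Os9 rose at 12 weeks after each of them and at 8 weeks after centring. Sel1l, the adaptor of HRD1, varied most of all, from 2.6 to 23.3 FPKM with no order by group, so that its 95% interval at 12 weeks ran from -0.84 to 1.83. Differences in Sel1l were not detectable with this spread.

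Of the sensors and their transcription factors only Ddit3 passed against control in this fit. Ern1 stood at 15.1, 15.7 and 14.4 FPKM in NOD glands at 12 weeks, at 15.1, 15.4 and 11.3 FPKM at 8 weeks and at 12.5, 14.5 and 11.7 FPKM in ESS glands, against 14.7, 16.9 and 11.7 FPKM in control glands. Eif2ak3 stood at 16.8, 14.5 and 13.3 FPKM in NOD glands at 12 weeks, at 11.6, 11.9 and 10.9 FPKM at 8 weeks and at 13.7, 14.4 and 13.4 FPKM in ESS glands, against 12.9, 14.6 and 12.6 FPKM in control glands. Atf6 stood at 6.13, 5.46 and 4.91 FPKM in NOD glands at 12 weeks, at 5.91, 5.91 and 5.68 FPKM at 8 weeks and at 6.56, 6.28 and 6.12 FPKM in ESS glands, against 6.13, 7.98 and 6.35 FPKM in control glands. Ern1 overlapped between all groups and control. Eif2ak3 at 8 weeks lay below control and ESS, and Atf6 at both NOD ages lay at or below the lowest control library. Their fold changes against control lay between -0.26 (Atf6 at 12 weeks, adjusted p = 0.0736) and 0.14 (Eif2ak3 at 12 weeks, adjusted p = 0.278), and none passed in this fit. At 12 weeks Eif2ak3 rose by 0.34 after quantile normalization (adjusted p = 0.00695), by 0.33 after centring (adjusted p = 0.00872) and by 0.31 after rescaling (adjusted p = 0.0168). The 12-week libraries of Eif2ak3 lay above the 8-week libraries, by 0.34 ± 0.10 on the log2 scale, with an adjusted p of 0.276.

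Xbp1, the third most abundant of the 33 genes, stood at 321, 316 and 301 FPKM in NOD glands at 12 weeks, at 308, 349 and 319.5 FPKM at 8 weeks and at 375, 342 and 339 FPKM in ESS glands, against 318, 387 and 352 FPKM in control glands. All groups overlapped with control. The 95% intervals of its log2 fold change were -0.36 to 0.02 at 12 weeks, -0.30 to 0.08 at 8 weeks and -0.19 to 0.19 in ESS glands. Total Xbp1 mRNA does not show how much of it was spliced. IRE1 removes 26 bases from the mRNA, here bases 815 to 840 of the transcript Xbp1-201 in GENCODE M21, and that stretch is shown in capitals because it is what separates both forms.
Xbp1-201: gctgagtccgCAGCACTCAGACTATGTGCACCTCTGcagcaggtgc
With the stretch the reading frame holds 267 codons and without it 371. All 3 Xbp1 transcripts listed in the deposited table hold the stretch, so the spliced form is not distinguished in these values. Atf4, which is regulated mainly in translation, stood at 257, 231 and 231 FPKM in NOD glands at 12 weeks, at 235, 229 and 247 FPKM at 8 weeks and at 176, 232 and 219 FPKM in ESS glands, against 223, 209 and 268 FPKM in control glands. It overlapped between every group and control, with fold changes of 0.04 ± 0.12 at 12 weeks and 0.03 ± 0.12 at 8 weeks.

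Ddit3 and Trib3, known targets of ATF4, rose at both NOD ages, and Ppp1r15a rose at 8 weeks. Ddit3 (CHOP), a factor linked to cell death under lasting stress, stood at 4.3, 3.63 and 3.76 FPKM in NOD glands at 12 weeks, at 4.29, 2.77 and 4.61 FPKM at 8 weeks and at 2.8, 2.93 and 2.76 FPKM in ESS glands, against 1.61, 2.36 and 2.74 FPKM in control glands. No group overlapped with control, but the lowest libraries at 8 weeks and in ESS glands were near the highest control library. Ddit3 rose by 0.61 ± 0.16 at 12 weeks (adjusted p = 0.0133) and by 0.59 ± 0.16 at 8 weeks (adjusted p = 0.0182) on the log2 scale. Trib3, a pseudokinase that restrains ATF4 and CHOP, stood at 3.45, 3.08 and 2.66 FPKM in NOD glands at 12 weeks, at 3.5, 3.38 and 3.97 FPKM at 8 weeks and at 1.11, 0.848 and 0.999 FPKM in ESS glands, against 0.925, 0.642 and 2.2 FPKM in control glands. Every NOD library lay above every ESS and control library. Trib3 had the largest fold change of the 33 genes at both ages, 0.91 ± 0.20 at 12 weeks (adjusted p = 0.00514) and 1.09 ± 0.20 at 8 weeks (adjusted p = 0.00197), values that the pseudocount understates at so low a level. Ppp1r15a (GADD34), which restores translation by directing dephosphorylation of eIF2α, stood at 12.2, 8.31 and 6.31 FPKM in NOD glands at 12 weeks, at 15.6, 12.9 and 11.6 FPKM at 8 weeks and at 5.82, 6.23 and 7.43 FPKM in ESS glands, against 5.82, 5.99 and 10.9 FPKM in control glands. It lay above control only at 8 weeks, where it rose by 0.79 ± 0.24 (adjusted p = 0.0294), against 0.22 ± 0.24 (adjusted p = 0.50) at 12 weeks. The difference of Ppp1r15a between the ages, -0.56 ± 0.24 for 12 against 8 weeks, had an adjusted p of 0.516. Exons of Ddit3 overlap those of Mars on the opposite strand, those of Ppp1r15a overlap Tulp2 and those of Pdia3 overlap Catsper2. The library kit was stranded, but neither labels nor headers state the strand used in counting, so reads from these pairs may not have been told apart. Same-strand overlaps, which strand does not separate, were those of Ddit3 with another protein-coding entry named Ddit3, Manf with Rbm15b and Hsp90b1 with Gm15344, among others. The calls of Ddit3 at both ages and of Ppp1r15a at 8 weeks were lost with transcript values summed, and without control library 1.

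In ESS glands no gene of the 33 passed the test against control, while Calr, Hsp90b1, Pdia3, Sdf2l1 and Creld2 lay above control in every library. Of the 33 genes 0 were called with limma, where 0.165% of all genes were (0.0678% risen and 0.0969% fallen), and 8 had an unadjusted p under 0.05. They were Calr, Hsp90b1, Pdia3, Pdia6, Sdf2l1, Creld2 and Os9 upward and Herpud1 downward, and the lowest adjusted p, that of Calr, was 0.141. In 10 of the 33 genes (30.3%) every ESS library lay above every control library, against 4.22% of all genes: Calr, Hsp90b1, Pdia3, Pdia6, Dnajc3, Sdf2l1, Creld2, Edem1, Os9 and Ddit3. In 2, Canx and Derl2, every ESS library lay below, against 13.9% of all genes. Pdia6, which passed at neither NOD age in this fit, stood at 69.1, 66.6 and 67 FPKM in ESS glands, against 56.7, 54.8 and 54.4 FPKM in control glands, with a fold change of 0.28 ± 0.11 (adjusted p = 0.325). The median fold change of the 16 folding genes was 0.20, that of the 9 degradation genes -0.04, and that of all genes -0.06. Trib3 and Ppp1r15a overlapped with control at -0.12 ± 0.20 and -0.15 ± 0.24. For Calr the ESS libraries with salivary transcripts held 446 and 440.4 FPKM and the one without held 440.5 FPKM. Summed over the 33 genes, those with salivary transcripts held 4124 and 4332 FPKM and the one without 4011 FPKM. Leaving out both salivary libraries moved the median fold change of the 33 genes from 0.05 to 0, and that of all genes from -0.06 to -0.08. The part of salivary tissue in the ESS values was not tested.

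Set directly against NOD glands of either age, ESS glands were lower in Trib3. Against NOD at 8 weeks 4 of the 33 genes fell (Dnajb11, Derl3, Trib3 and Ppp1r15a) and Derl1 rose, where 3.94% of all genes fell and 11.3% rose, 15.2% in all. Trib3 was lower by -1.22 ± 0.20 (adjusted p = 0.00142) and Ppp1r15a by -0.94 ± 0.24 (adjusted p = 0.0203) on the log2 scale, with no overlap in either. Derl3 was lower by -0.45 ± 0.12 (adjusted p = 0.03). Against NOD at 12 weeks 3 genes fell (Dnajb9, Herpud1 and Trib3) and Edem2 rose, where 4.44% of all genes fell and 16.2% rose, 20.6% in all. Dnajb9 was lower by -1.0 ± 0.20 (adjusted p = 0.00454), Trib3 by -1.03 ± 0.20 (adjusted p = 0.00392) and Herpud1 by -0.56 ± 0.15 (adjusted p = 0.0242). Calr and Hspa5 passed against neither NOD age in this fit: Calr differed by -0.22 ± 0.12 from NOD at 8 weeks, with a 95% interval of -0.49 to 0.06, and by -0.16 ± 0.12 at 12 weeks, with an interval of -0.43 to 0.11. Hspa5 differed by -0.27 ± 0.13 and -0.21 ± 0.13 in that order. Every ESS library lay below every NOD library at 8 weeks in 8 of the 33 genes (7.92% of all genes) and above in 4 (25.2% of all genes). Against NOD at 12 weeks 7 of the 33 genes lay below (9.40% of all genes) and 3 above (32.1% of all genes). Without both ESS libraries that held salivary transcripts 2 genes were called in each of these comparisons, and the fall of Trib3 against NOD at 12 weeks had an adjusted p of 0.084. After the 3 other scalings 6, 6 and 8 genes fell against NOD at 8 weeks and 12, 5 and 14 against NOD at 12 weeks, and 0 rose. Calr, Hspa5, Hsp90b1 and Pdia3 were among those that fell against NOD at 12 weeks after quantile normalization and after rescaling. Of the sensors and transcription factors, Atf4 fell there after quantile normalization, and Ern1, Eif2ak3 and Ddit3 after rescaling. None of them fell there after centring. Against NOD at 8 weeks Pdia3 fell after quantile normalization, Hsp90b1 after centring, and Calr, Hsp90b1 and Pdia3 after rescaling. Against NOD at 8 weeks, leaving out any 1 of the ESS or NOD libraries left 1 to 3 calls. Against NOD at 12 weeks 2 calls were left without ESS library 1 or without NOD library 2.

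Between the NOD ages 0 of the 33 genes were called with limma, where 0.126% of all genes were (0.0775% risen and 0.0484% fallen), and 4 had an unadjusted p under 0.05: Dnajb9 and Eif2ak3 higher at 12 weeks and Edem2 and Ppp1r15a lower. Every library at 12 weeks lay above every library at 8 weeks for Dnajb9 and Eif2ak3 (6.06% of the 33 genes, against 5.69% of all genes), and below for Edem2 (9.78% of all genes). The median fold change of the 33 genes was -0.03, the same as that of all genes.

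The wider pathway was counted in 4 lists apart from the 33 genes. Of 27 tested targets of ATF4 and the integrated stress response, 5 rose and 2 fell in NOD glands at 12 weeks and 9 rose and 0 fell at 8 weeks, with median fold changes of 0.17 and 0.30. Of all genes, 5.52% rose and 27.8% fell at 12 weeks and 5.30% and 22.1% at 8 weeks. Set directly against 8 weeks, 0 of the 27 were called at 12 weeks, while 24 changes were negative and 3 positive. The median was -0.23, and that of all genes -0.03. For 10 of the 27 every library at 12 weeks lay below every library at 8 weeks (9.78% of all genes), and for 0 above (5.69% of all genes). Nupr1, a stress-induced chromatin protein, stood at 431, 277 and 383 FPKM in NOD glands at 12 weeks and at 438, 294 and 339 FPKM at 8 weeks, while control glands held 108, 198 and 128 FPKM. All NOD libraries lay above control, with rises of 1.35 ± 0.24 (adjusted p = 0.00158) and 1.32 ± 0.24 (adjusted p = 0.00202) at the 2 ages. Pck2, the mitochondrial enzyme that makes phosphoenolpyruvate, rose by 0.62 ± 0.10 at 12 weeks (adjusted p = 0.000662) and by 0.85 ± 0.10 at 8 weeks (adjusted p = 7.19e-05). The transcription factor Atf5 rose by 0.73 ± 0.20 (adjusted p = 0.0182) and 1.17 ± 0.20 (adjusted p = 0.00163). Phgdh, which opens serine synthesis, fell at 12 weeks by 0.49 ± 0.11 on the log2 scale (adjusted p = 0.00489), and Cebpg, a dimer partner of ATF4, by 0.53 ± 0.14 (adjusted p = 0.0148). In ESS glands 0 of the 27 were called with limma, and Nupr1, Pck2 and Atf5 differed from control by 0.22 ± 0.24, 0.14 ± 0.10 and -0.20 ± 0.20.

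Among 35 other folding enzymes 2 rose and 6 fell at 12 weeks, and 2 rose and 2 fell at 8 weeks, with medians of -0.07 and -0.06, where 5.52% and 5.30% of all genes rose and 27.8% and 22.1% fell at the 2 ages. The rises were near that background and the falls below it. Erp44, which retrieves unassembled proteins from the Golgi, rose by 0.35 ± 0.09 at both ages (adjusted p = 0.0145 and 0.018), the isomerase Pdia5 by 0.42 ± 0.10 at 8 weeks (adjusted p = 0.00718) and Dnajc18 by 0.37 ± 0.09 at 12 weeks (adjusted p = 0.0105), the last at about 1 FPKM. Txndc12, a thioredoxin-like protein of the lumen, fell by 0.47 ± 0.12 at 12 weeks and by 0.53 ± 0.12 at 8 weeks on the log2 scale (adjusted p = 0.0104 and 0.00672). The J protein Dnajb14 fell by 0.34 ± 0.09 and 0.43 ± 0.09 (adjusted p = 0.0103 and 0.00351), and Cnpy2 by 0.32 ± 0.09 at 12 weeks (adjusted p = 0.017).

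Of 19 other degradation genes 1 rose and 2 fell at 12 weeks, and 2 rose and 1 fell at 8 weeks, where 5.52% and 5.30% of all genes rose and 27.8% and 22.1% fell. These counts are given as a description only. Vcp, the ATPase that pulls substrates into the cytosol, stood at 71.7, 64.7 and 59.4 FPKM in NOD glands at 12 weeks, at 69.6, 67.2 and 66.9 FPKM at 8 weeks and at 143, 145 and 136 FPKM in ESS glands, against 122, 128 and 104 FPKM in control glands. The NOD libraries lay far below the others. Vcp fell by 0.85 ± 0.09 on the log2 scale at 12 weeks (adjusted p = 5.48e-05) and by 0.79 ± 0.09 at 8 weeks (adjusted p = 0.000103). Erlec1, a lectin of the export complex, rose by 0.44 ± 0.10 and 0.59 ± 0.10 (adjusted p = 0.00558 and 0.00116), and Ngly1, which strips sugars from exported proteins, rose by 0.44 ± 0.10 at 8 weeks (adjusted p = 0.00696). Aup1 fell by 0.35 ± 0.09 at 12 weeks (adjusted p = 0.0124), but its direction turned to 0.60 (adjusted p = 0.085) when transcript values were summed.

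Of 20 other regulators 1 rose and 3 fell at 12 weeks, and 3 rose and 3 fell at 8 weeks, beside the same shares of all genes (5.52% and 5.30% risen, 27.8% and 22.1% fallen). Creb3l1 (OASIS), a membrane-bound relative of ATF6, rose by 0.70 ± 0.12 at 12 weeks (adjusted p = 0.00107) and by 0.35 ± 0.12 at 8 weeks (adjusted p = 0.0452). Its relative Creb3l2 fell by 0.32 ± 0.10 and 0.40 ± 0.10 (adjusted p = 0.0345 and 0.014), and Eif2s1, which encodes eIF2α, by 0.29 ± 0.10 and 0.31 ± 0.10 (adjusted p = 0.0438 and 0.0384). At 8 weeks Bhlha15 (MIST1), a secretory cell factor, rose by 0.25 ± 0.08 (adjusted p = 0.0383), Eif2ak1, the haem-regulated kinase of eIF2α, rose by 0.30 ± 0.08 (adjusted p = 0.0213), and Wfs1 fell by 0.42 ± 0.13 (adjusted p = 0.034). Nfe2l2 (NRF2) fell by 0.43 ± 0.14 at 12 weeks (adjusted p = 0.0344). In ESS glands none of the 35, 19 and 20 genes of these lists were called with limma.

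**Figure D3:**
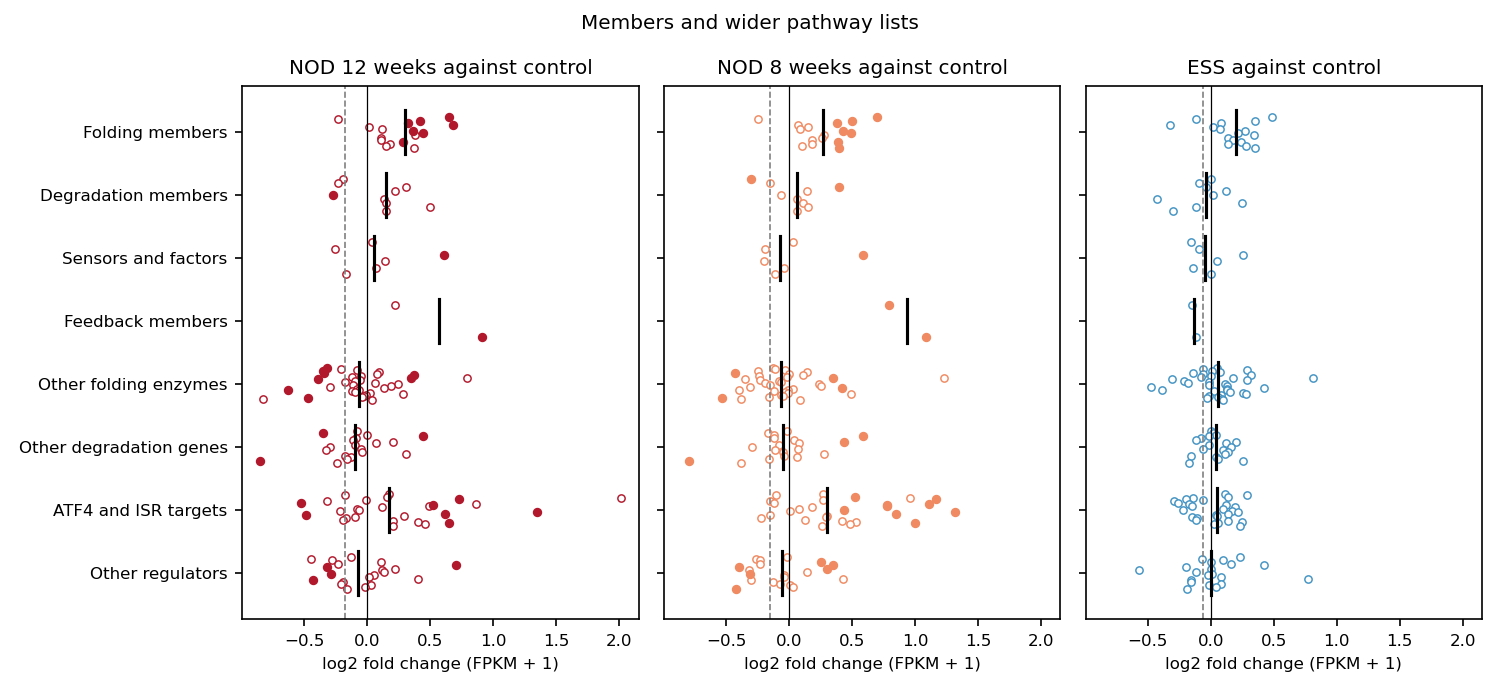
Log2 fold change (horizontal axis) of the 33 genes by role and of 4 wider lists in NOD glands at 12 weeks, NOD glands at 8 weeks and ESS glands against control; each point is a gene, filled where the adjusted p was under 0.05, black bars are list medians and the dashed line is the median of all genes. Medians of ATF4 and integrated stress response (ISR) targets are 0.17, 0.30 and 0.05 in the 3 panels, and those of other folding enzymes -0.07, -0.06 and 0.06.

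The deposited transcript table separates isoforms that the gene values combine, and Hyou1 differed there. It listed 62 transcripts of the 33 genes, of which 55 passed the filter. At 12 weeks 6 of the 55 rose, where 11.2% of 16400 tested transcripts were called in either direction, a share close to that of the 55. At 8 weeks 7 of the 55 rose, where 8.71% of all were called in either direction. The share of all transcripts that rose was not computed, so these counts are a description only. None of the 55 fell, and in ESS glands 0 were called, where 0.0793% of all transcripts were. Calr-201, Hsp90b1-201, Trib3-201, Hspa5-201, Derl3-201 and Hyou1-204 rose at both ages, and Pdia3-201 at 8 weeks. These were 13 calls over the comparisons with control. Refits gave 6 calls without control library 1, 8 without control library 3 and 5 without NOD library 1 at 8 weeks. Those totals were counted anew in each refit, so they may include transcripts outside the 13.

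Hyou1-204 stood at 16.8, 22.3 and 20.3 FPKM in NOD glands at 12 weeks, at 21.6, 20.8 and 20.4 FPKM at 8 weeks and at 12.7, 9.55 and 5.93 FPKM in ESS glands, against 6.63, 4.33 and 1.57 FPKM in control glands. Its log2 fold change was 2.14 ± 0.36 at 12 weeks (adjusted p = 0.0052) and 2.22 ± 0.36 at 8 weeks (adjusted p = 0.00456). Another transcript, Hyou1-206, stood at 11, 9.45 and 3.92 FPKM in NOD glands at 12 weeks, at 6.43, 11.6 and 4.68 FPKM at 8 weeks and at 18.1, 26.2 and 29.6 FPKM in ESS glands, against 15.3, 11.9 and 18 FPKM in control glands. It was lower in NOD glands without passing the test, by -0.90 ± 0.38 at 12 weeks (adjusted p = 0.172) and -0.97 ± 0.38 at 8 weeks (adjusted p = 0.156). Hyou1-201 stood at 10.2, 0.171 and 8.29 FPKM in NOD glands at 12 weeks, at 6.88, 1.51 and 10.4 FPKM at 8 weeks and at 5.4, 4.19 and 0.0067 FPKM in ESS glands, against 4.03, 21.2 and 0 FPKM in control glands. Its spread within groups was wide, with fold changes of 0.04 ± 1.26 at 12 weeks (adjusted p = 0.99) and 0.34 ± 1.26 at 8 weeks (adjusted p = 0.916). In NOD glands Hyou1-204 exceeded Hyou1-206 in each of the 6 libraries, and in ESS and control glands it was lower in each of the 6. Hyou1-204 and Hyou1-206 have 26 exons each, share 24 of them and differ at their ends (chr9:44379623-44391102 and chr9:44379573-44392363, 3374 and 4489 bases), so the split rests on reads from those ends and on the authors' estimate.

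Hspa5-201, a minor transcript that extends beyond Hspa5-202 at both ends, stood at 13, 10.9 and 11.8 FPKM in NOD glands at 12 weeks, at 14.5, 17.1 and 11.3 FPKM at 8 weeks and at 11.7, 9.92 and 9.49 FPKM in ESS glands, against 7.05, 6.05 and 2.16 FPKM in control glands. No group overlapped with control, and the rises were 1.19 ± 0.30 (adjusted p = 0.0339) and 1.42 ± 0.30 (adjusted p = 0.018) at 12 and 8 weeks. Hspa5-202, which carries most of the gene's level, averaged 384 ± 67.6 FPKM at 12 weeks and 393 ± 18.3 FPKM at 8 weeks, while control glands averaged 287 ± 13.6 FPKM (SD, n = 3 each). Adjusted over all transcripts tested, its p-values in the limma fit were 0.086 and 0.0681. The spread of Sel1l came from Sel1l-204, which ran from 0 to 27.8 FPKM, while Sel1l-201 ran from 1.05 to 6.51 FPKM.

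**Figure D4:**
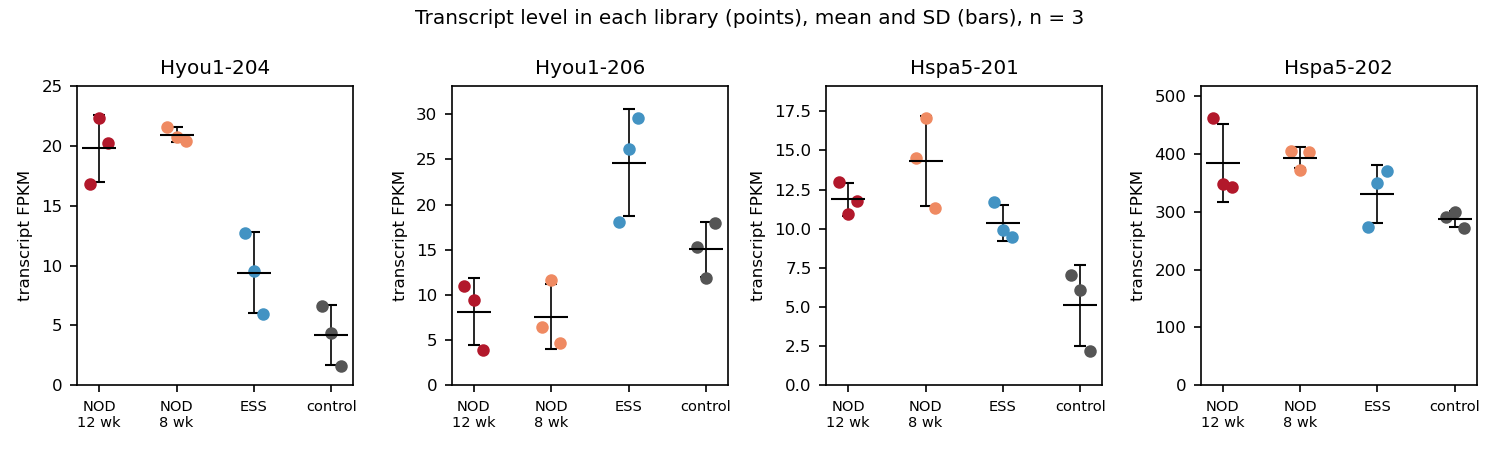
FPKM (vertical axis, from 0) of transcripts of Hyou1 and Hspa5 in each library of NOD at 12 weeks, NOD at 8 weeks, ESS and control glands; horizontal lines are means and bars are SD. Hyou1-204 averages 19.8 and 20.9 FPKM in NOD glands against 4.18 FPKM in control glands, whereas Hyou1-206 averages 8.12 and 7.57 FPKM against 15.1 FPKM.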

How the data were processed

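The authors deposited FPKM values, per the file headers, for genes and for transcripts of 12 lacrimal gland libraries, made from Trizol RNA with a stranded kit per the labels' protocols. The build was GRCm38 per the submitters' processing notes. The aligner, annotation and counting strand were not stated in any source used here. No file gives counts. Steps in the low values gave relative depths from 0.782 to 1.13 around a mean of 1, with 35.9% to 49.3% of those values within 0.1 of a whole multiple, so whole reads were not recovered and no counting interval is given.

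Libraries were grouped by title. Values were tested as log2(FPKM + 1) for genes reaching 1 FPKM or more in 3 or more libraries, with limma 3.58.1 (R 4.3.3, trend) on all 12 libraries, Benjamini-Hochberg adjusted over 10325 genes, for 6 comparisons. The fit was tested on simulated data, of which no setting or outcome is given here. The 33 genes, the lists and the alternatives were chosen with earlier results of these data known. Genes described library by library were those called against control, the sensors and transcription factors, and the 3 most abundant; from each wider list up to 3 called genes in each direction with the smallest adjusted p are named. All gene identifiers but those of Creld2 and Atf4 matched GENCODE M21 in version and coordinates. No near-identical copy under another gene name (blastn 2.17.0, at least 95% identity over at least 50% of the transcript) was found. Entries of the same name were left out of that search. Another protein-coding entry named Ddit3 overlaps exons of Ddit3 and was therefore not judged by it. Alternatives were pseudocounts, filters, 3 scalings, the compared groups alone, a replicate block, summed transcripts and left-out libraries. Python 3.11.15, pandas 2.3.3 and matplotlib 3.10.9 were used.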

Additional observations from a re-analysis of the deposited data

How the results depend on the processing

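Calls of Calr, Dnajb11 and Trib3 at both NOD ages, and of Hspa5, Hsp90b1 and Pdia3 at 8 weeks, passed under every alternative in which they were tested; with Trib3 in ESS against NOD at 8 weeks and Dnajb9 in ESS against NOD at 12 weeks they were the only calls to do so. Against control at 12 weeks 10 genes were called as reported, 17 (all rises) after quantile normalization, after centring and after rescaling without genes above 2000 FPKM, and 6 with the compared groups only. At 8 weeks the same scalings gave 13, 17 and 12 rises and no falls, against 11 and 1 as reported. ESS against NOD at 12 weeks gave 12, 5 and 14 calls, all falls, and 2 without both salivary ESS libraries; ESS against NOD at 8 weeks gave 6, 6 and 8 falls, and 2 without them, where the lone ESS library was assumed to vary like the others. The cause was not tested. Leaving out 1 library gave 4 to 9 calls at 12 weeks, 7 to 10 at 8 weeks (7 without control library 1 or NOD library 3), 2 to 4 for ESS against NOD at 12 weeks and 1 to 3 at 8 weeks, 0 for ESS against control and between the ages, and 5 to 14 transcripts, where 13 were called. Aup1 at 12 weeks reversed to 0.60 with summed transcripts. With the replicate block 10 genes were called at 12 weeks and 11 at 8 weeks against control, 0 for ESS against control and between the ages, and 4 for ESS against each NOD age, and of 18 pairs of the same number 1 correlated above 0.1, with 1 library closest to its own number. Over all genes, ESS against control gave 17 calls, 1 to 75 with a library left out; NOD at 12 against 8 weeks gave 13, 32 with the compared groups only. Depth is known in relative terms only, so how far counting error limits genes near 1 FPKM, such as Trib3, cannot be given.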
